A study of Homo sapiens with 6 samples.

Results

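The proteins described here build the mitotic spindle, hold cells in mitosis until every chromosome is attached, and divide the cell afterwards. The members were a fixed list of 37 gene symbols, each taken from the row of the deposited RNA-seq table with that symbol, or from the row with the highest mean level where several rows carried it. All 37 were found among the 57150 rows of the table. The libraries came from K562, a human chronic myeloid leukemia line with erythroid features. In the αCP1/2 co-depletion group, 3 pools of cells were transfected with siRNAs that each target both PCBP1 and PCBP2, the mRNAs of the poly(C)-binding proteins αCP1 and αCP2, and in the control group 3 pools were transfected with control siRNAs. Cells of both groups were collected 72 hours after transfection. The pools of a group did not all receive the same siRNA. By the paper's account, some control siRNAs target GLD-2, which it calls an unrelated mRNA, and another is non-targeting. The part of GLD-2 targeting in the values below was not tested. Nothing beyond the siRNA distinguished the groups in the labels.

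The table gave 1 FPKM and 1 estimated count per gene for each group. FPKM is the number of sequenced fragments scaled to transcript length in kilobases and to the number of mapped fragments, so FPKM values may be compared between genes. The sources do not say how 3 libraries became 1 value, so the differences below have no replicate check, and no p-value was computed for any of them. PCBP2 was at 530.8 FPKM in the column that the table labels KD and at 342.4 FPKM in the one it labels CTRL, and PCBP1 was close in both (184.1 and 187.8 FPKM). The paper reports depletion of both mRNA and protein in the transfected cells, with Western blots for the proteins. In these FPKM neither targeted mRNA was clearly lower under KD, and the reason for this difference from the paper was not tested. The columns are therefore called the KD column and the CTRL column after their labels only. All estimated counts together came to 13699340 (KD) and 11680567 (CTRL). Of 13 erythroid and hematopoietic markers, 7 were listed at 0 in both columns, among them GATA1, TAL1 and KLF1, transcription factors that define the erythroid lineage. Their summed level was 161.6 FPKM (KD) and 43.4 FPKM (CTRL), mostly from the embryonic globin HBE1. Of 8 epithelial markers, 4 exceeded 5 FPKM in both columns. The summed level of the 8 was 4370 FPKM (KD) and 3190 FPKM (CTRL), mostly from the keratins KRT7, KRT8 and KRT18. EPCAM was at 3.94 FPKM (KD) and 3.26 FPKM (CTRL) and CDH1 at 0.36 and 0.43 FPKM, while KRT19 and ESRP1 were listed at 0. None of 23 genes that every cell uses was at 0. The labelled cell type was thus not borne out by its defining markers, and the part of these marker differences in the values below was not tested.

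Mitosis is ordered by protein kinases and by timed protein destruction. The spindle assembly checkpoint is a relay of kinases and adaptor proteins at unattached kinetochores, the protein plates by which chromosomes grip microtubules, and it restrains CDC20, the activator of the anaphase-promoting complex. Once the checkpoint is satisfied, that ubiquitin ligase marks securin and cyclin B for destruction, sister chromatids separate, and the central spindle directs cleavage. Most of these genes are transcribed late in the cell cycle, and their levels in bulk RNA depend on the share of cells in G2 and mitosis as well as on the RNA per cell, which cannot be told apart here.

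Many late cell cycle promoters carry a cell cycle genes homology region (CHR), a short element read by the MuvB protein complexes, near a CCAAT box, the element read by NF-Y. To show what the members share in sequence, the RefSeq promoter windows of GRCh38.p14, which run from 250 bases before to 50 bases after each gene's start, were searched on both strands for the CHR letters TTTGAA and TTCGAA and for CCAAT. The letters TTCGAA read the same on both strands, and TTTGAA on the other strand reads TTCAAA. The windows below, each of 30 bases on the gene's strand, show the CHR letters in capitals for genes of most roles, chosen because the match lies within 50 bases of the start.
CCNB2: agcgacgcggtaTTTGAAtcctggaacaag
PLK1: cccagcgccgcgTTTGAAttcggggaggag
BUB1: ctgcgcggggtaTTCGAAtcggcggcggct
BUB1B: gggaccgttaaaTTTGAAacttggcggcta
CDCA8: gtgactgtggagTTTGAAttgggtggcggt
INCENP: tgagccttcagtTTTGAAaatcatagtttt
CENPA: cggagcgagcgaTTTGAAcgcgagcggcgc
SPC25: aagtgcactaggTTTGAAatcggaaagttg
KIF4A: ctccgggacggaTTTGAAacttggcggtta
KIF11: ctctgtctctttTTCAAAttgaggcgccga
PRC1: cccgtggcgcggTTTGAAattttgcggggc
MKI67: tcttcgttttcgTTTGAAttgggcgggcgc

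In GRCh38.p14, the windows of genes on the plus strand lie at chr15:59105105-59105134 for CCNB2, chr16:23678848-23678877 for PLK1, chr15:40161034-40161063 for BUB1B, chr1:37692481-37692510 for CDCA8, chr11:62123989-62124018 for INCENP, chr2:26786026-26786055 for CENPA, chrX:70290058-70290087 for KIF4A and chr10:92593090-92593119 for KIF11. The windows of genes on the minus strand lie at chr2:110678045-110678074 for BUB1, chr2:168890416-168890445 for SPC25, chr15:90994538-90994567 for PRC1 and chr10:128126435-128126464 for MKI67. CHR letters were present in 25 of the 31 members with a window, or 80.65%, against 16.68% of 27305 genes. CCAAT was present in 24 of the 31, or 77.42%, against 35.71% of all genes, and both elements occurred together in 67.74% of the members and 6.632% of all genes. Of 35 CHR matches in the members, 25 lay within 50 bases of the start, as the plot of matches by position shows. Among 94 other mitotic genes with a window 44.68% held the CHR letters, and among 38 DNA replication genes 5.263% did. When only the 250 bases before the start were searched, 61.29% of the members and 14.64% of all genes held them. Windows were not matched for BUB3, TTK, UBE2C, AURKA, BIRC5 and TPX2. The 6 members whose window lacked the CHR letters were PTTG1, AURKB, CENPE, KIF2C, CKAP2 and KIF20A. A match is a run of letters and not a measured binding site.

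**Figure D1:**
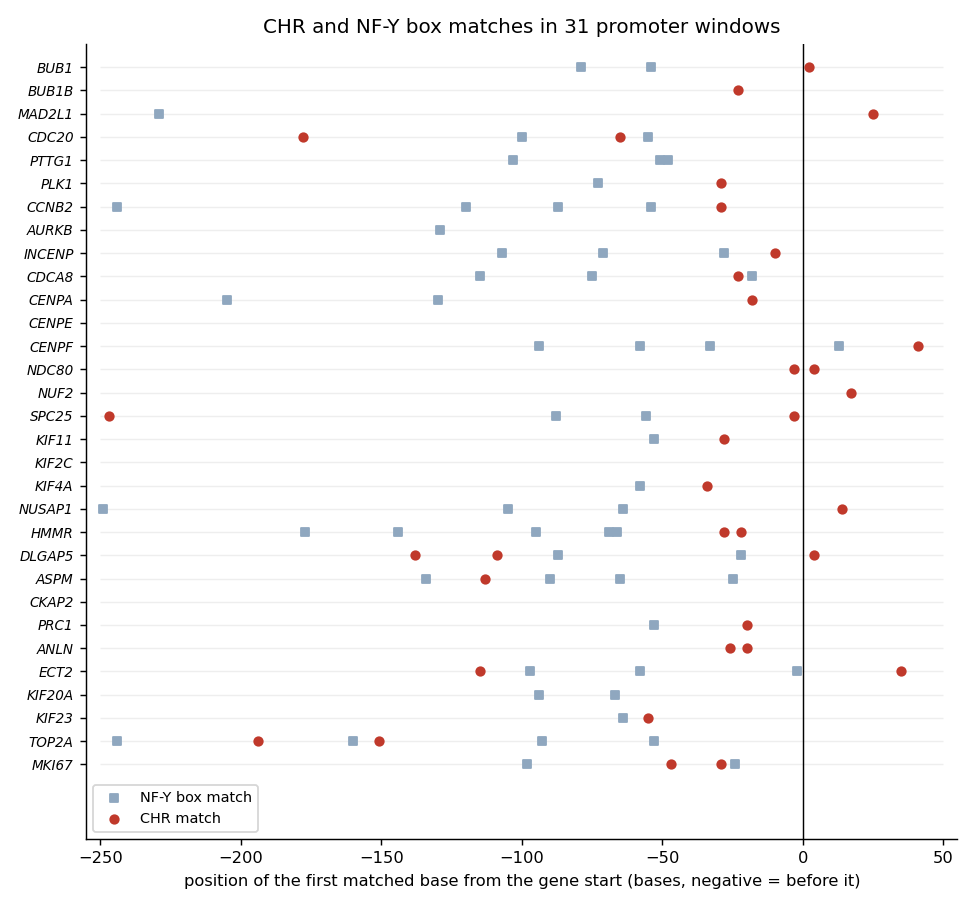
Position of each CHR match (red circles) and each NF-Y box match, the CCAAT letters (blue squares), for the 31 members with a RefSeq promoter window, in bases from the gene start (black line), with negative positions before it. Of the 35 CHR matches, 25 lie within 50 bases of the start, and most NF-Y box matches lie farther before it.

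The members were well expressed in both columns. Their FPKM ran from 9.61 for SPC25 to 519 for PTTG1, both in the KD column, and every member exceeded 5 FPKM in both columns. Against the 13741 genes whose mean FPKM reached 1, the median member stood at the 76.1 percentile of level in the KD column and at the 82.6 percentile in the CTRL column. The order of the members was much the same in both columns (Spearman's rho 0.946 over 37 genes, which share the same 6 libraries). The same 4 genes led both columns: PTTG1, PRC1, UBE2C and TOP2A together held 44.3% of the members' summed FPKM in the KD column and 40.3% in the CTRL column. Rank changed by 3 places or fewer for 28 members, and the greatest shift was that of INCENP, from place 36 of 37 in the CTRL column to place 23 in the KD column. The table gave 22 members a locus that other rows carry too, and 25 members share no exonic base with another gene in GENCODE release 44, an annotation of the genome. The plot of levels shows both values of every member.

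**Figure D2:**
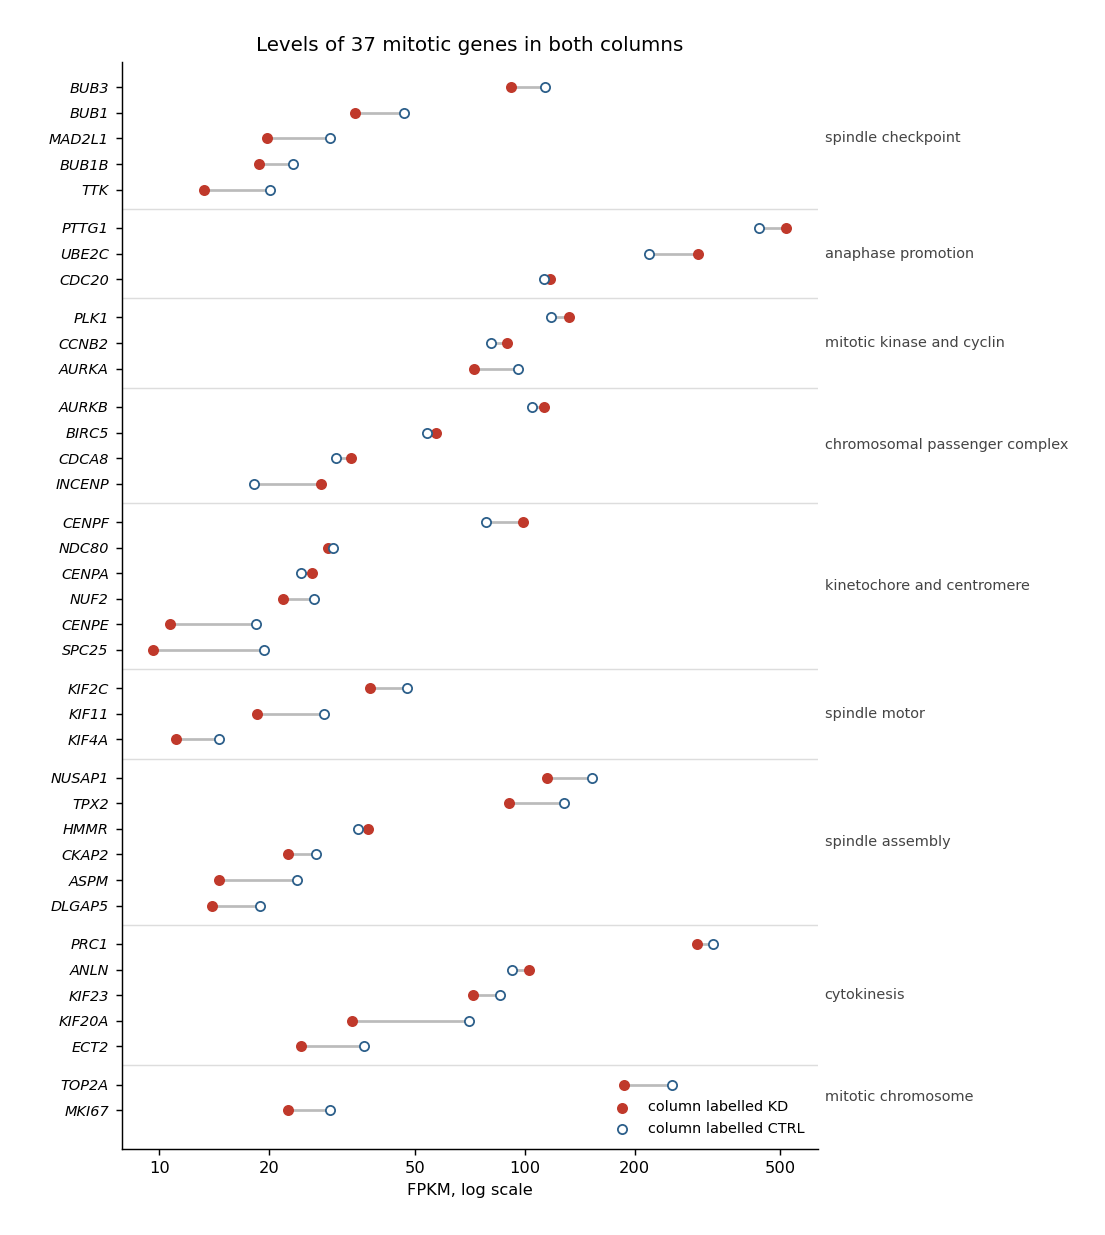
FPKM of the 37 members on a log axis, grouped by role, with the KD column as filled red circles, the CTRL column as open blue circles and a grey line joining the pair. All 5 spindle checkpoint genes lie lower in the KD column, and all 3 anaphase genes and all 4 chromosomal passenger genes lie higher, of which CDC20, AURKB, BIRC5 and CDCA8 fall below 0 in count shares.

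Differences between the columns were modest. They are given as the log2 ratio of FPKM + 1 in the KD column over FPKM + 1 in the CTRL column, where 1 is a doubling and -1 a halving, and where the added 1 slightly understates the differences of the lowest members. The median over the 37 members was -0.30, with a range from -1.04 to 0.58, and 28 of them lay within 0.5 of 0. Over all genes the 16th percentile was -0.50 and the 77th percentile was 0.49, so most genes lay in that range too. A log2 ratio below 0 was found for 24 members and above 0 for 13, and 48.9% of all 13741 genes lay below 0, with a median of 0.01. Only KIF20A reached a log2 ratio of -1 or less, as did 3.27% of all genes, and no member reached 1 or more, as did 8.51% of all genes. A count of 1 in 37 is near the background and is no result about the members, and in either direction 11.8% of all genes passed the limit.

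A further scale divided each estimated count by its column's total, and an exact binomial 95% interval (Clopper-Pearson) was computed for each ratio of these shares. It covers counting error only. On this scale the median of all genes shifted to -0.21, and the median of the members was -0.48, with 32 members below 0 beside 61.9% of all genes (Spearman's rho 0.947 with the FPKM ratios over the 37 genes). The interval lay below 0 for 27 members, above 0 for 3 and across 0 for 7, and its half-width was 0.111 at the median member. Intervals were not counted over all genes, so the 27 has no background and is no result about the members. Among the 27, AURKB (-0.15), BIRC5 (-0.14) and ANLN (-0.14) lay above the shifted median of all genes. Read against the shifted median of all genes, 24 members lay below it. At -1 or less were KIF20A, SPC25 and CENPE, as were 9.83% of all genes, and none was at 1 or more, as were 6.92% of all genes, a split opposite to the 3.27% and 8.51% of the FPKM scale. The last scale removed from the FPKM log2 ratios their quadratic trend in GC content and transcript length over 13298 genes, after which the members' median was -0.15 and 26 lay below 0, beside 48.6% of all genes (Spearman's rho 0.868 with the FPKM ratios over the 37 genes). Only KIF20A was then at -1 or less, as were 3.41% of all genes, and no member was at 1 or more, as were 5.45%. Across all 3 scales, 22 members were lower in the KD column and 4 were higher, the latter being PTTG1, UBE2C, INCENP and CENPF. The other 11 changed sign with the scale, and the plot of ratios gives all 3 values for each gene. Agreement across the scales was not counted over all genes, so these member counts have no background.

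**Figure D3:**
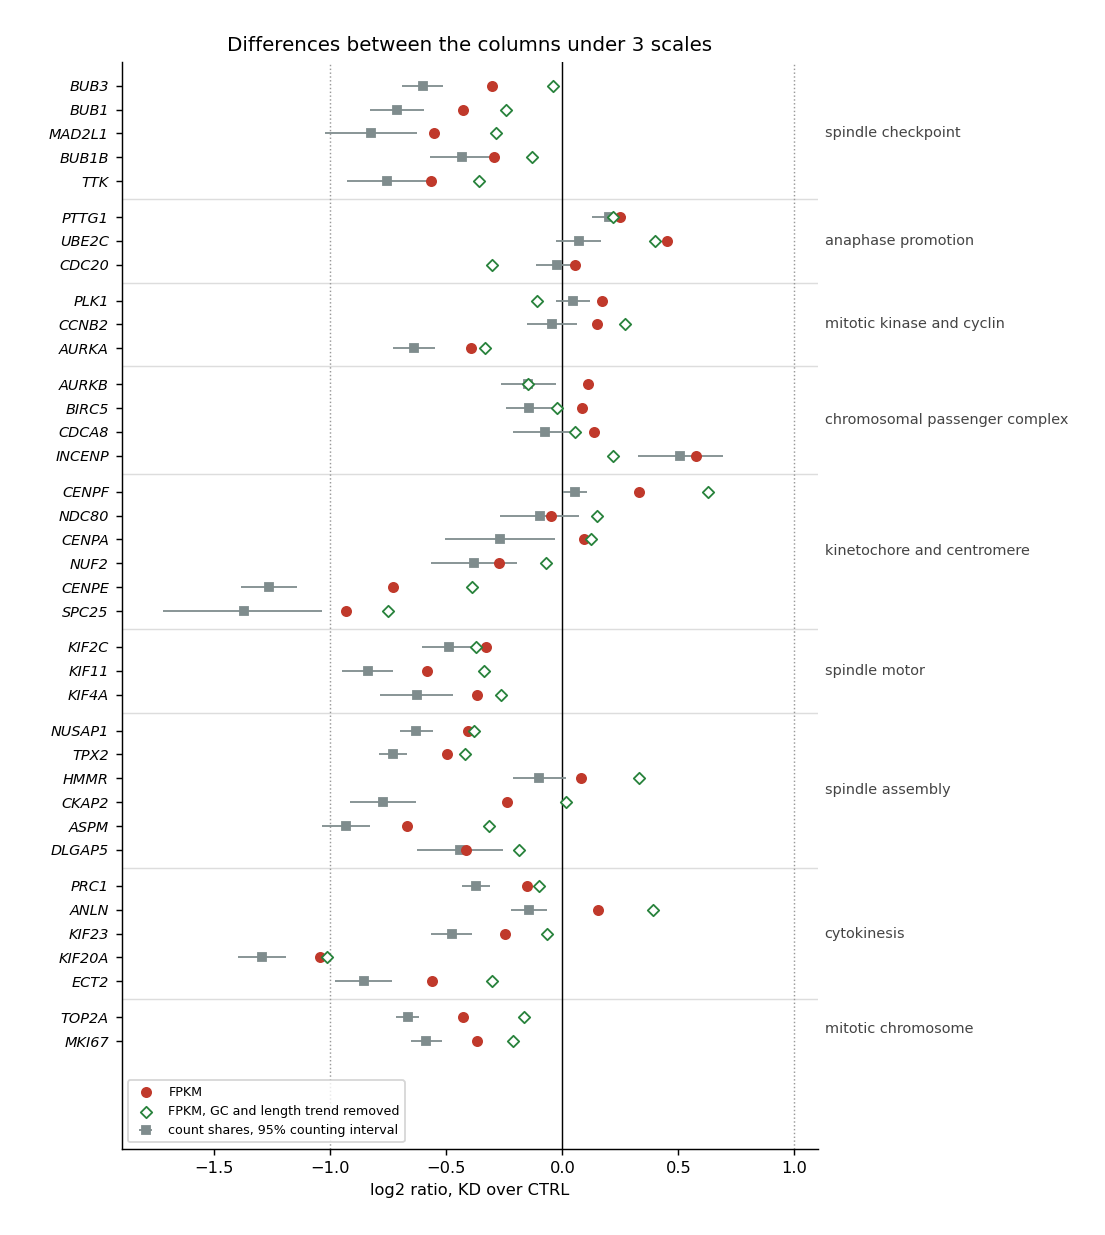
Log2 ratio of each member, KD over CTRL, on the FPKM scale (red circles), on the count share scale with its 95% counting interval (grey squares and bars) and on the FPKM scale with the GC and length trend removed (open green diamonds). Dotted lines mark -1 and 1. KIF20A lies at -1.04 on the FPKM scale, and SPC25, CENPE and KIF20A lie below -1 on the count share scale.

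The 5 spindle checkpoint genes were lower in the KD column on all 3 scales. BUB1, the kinase that recruits the other checkpoint proteins to the kinetochore, had 34.3 FPKM (KD) and 46.6 FPKM (CTRL), a log2 ratio of -0.43. TTK, the kinase also called MPS1 that starts the checkpoint signal, had 13.2 and 20.1 FPKM, a log2 ratio of -0.57. MAD2L1 encodes MAD2, which captures CDC20, and its values of 19.7 and 29.3 FPKM gave -0.55. These were the lower ratios of the group. BUB1B, which encodes the CDC20 inhibitor BUBR1, had 18.7 and 23.2 FPKM, a log2 ratio of -0.30. BUB3, the adaptor that carries BUB1 and BUBR1, was the most abundant of the group at 91.8 and 113.6 FPKM, also -0.30. The group's median was -0.43 in FPKM, -0.71 in count shares and -0.25 with the trend removed, beside 0.01, -0.21 and 0.01 for all genes. Every interval of the count shares lay below 0, for which there is no background over all genes. MAD2L1 had 38.4% GC and the other checkpoint genes 40.8% to 43.1%. In FPKM 73.5% of all genes below 40% GC were lower, and 64.9% of those between 40% and 45%. For BUB3 the value with the trend removed was only -0.04.

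The 3 genes of anaphase control had higher FPKM in the KD column, although CDC20 was below 0 on both other scales. PTTG1 encodes securin, which holds separase inactive until anaphase, and it was the most abundant member, with 519 FPKM (KD) and 436 FPKM (CTRL) and a log2 ratio of 0.25. UBE2C, the ubiquitin-conjugating enzyme that works with the anaphase-promoting complex, had 299 and 218 FPKM, a log2 ratio of 0.45. Both remained above 0 on the other scales, although the interval of the count share of UBE2C crossed 0 (-0.03 to 0.17) and that of PTTG1 did not (0.13 to 0.27). CDC20 hardly differed, with 117 and 113 FPKM and a log2 ratio of 0.05, beside -0.02 in count shares and -0.30 with the trend removed. The near-identical copies of securin, PTTG2 and PTTG3P, were listed at 0 in both columns, and CDC20P1 carried 29 and 42 counts against 2209 and 1916 for CDC20. Reads of such copies may have been divided between loci by the authors' counting.

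Of the mitotic kinases outside the checkpoint, AURKA and PLK1 differed in direction. AURKA, which matures centrosomes and builds the spindle poles, had 72.6 FPKM (KD) and 95.7 FPKM (CTRL), a log2 ratio of -0.39 that stayed below 0 on each scale. PLK1, which acts from mitotic entry to cytokinesis, had 132 and 118 FPKM, a log2 ratio of 0.17. Its count share ratio of 0.04 had an interval from -0.03 to 0.12, and with the trend removed it was -0.11. CCNB2, a B-type cyclin that activates CDK1, had 89.5 and 80.6 FPKM, a log2 ratio of 0.15 in FPKM and -0.04 in count shares.

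All 4 members of the chromosomal passenger complex had higher FPKM in the KD column. In count shares only INCENP stayed above 0. The median of all genes was -0.21 on that scale, and AURKB, BIRC5 and CDCA8 lay above it. The complex corrects faulty attachments and then moves to the central spindle. INCENP, its scaffold, had 27.6 FPKM (KD) and 18.2 FPKM (CTRL), the highest log2 ratio of the 37 at 0.58. Its estimated counts were 657 and 394, and the interval of the count share ratio ran from 0.33 to 0.69. INCENP (ENSG00000149503; hg19 chr11:61891444-61920635) also had the highest GC content of the members, 58.8%, and its log2 ratio with the trend removed was 0.22. The kinase AURKB had 113 and 105 FPKM, a log2 ratio of 0.11, and it was at -0.15 both in count shares and with the trend removed. BIRC5, or survivin, had 57.3 and 54.1 FPKM, a ratio of 0.08 that was below 0 on both other scales. CDCA8, or borealin, had 33.4 and 30.3 FPKM, a log2 ratio of 0.14 and a count share ratio of -0.07.

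The kinetochore genes spread widest, from -0.93 to 0.33. SPC25, a subunit of the NDC80 complex that binds microtubules, had 9.61 FPKM (KD) and 19.3 FPKM (CTRL). Its FPKM was 2.01 times as high in the CTRL column, although with the added 1 the log2 ratio was -0.93. The estimated counts of SPC25 were 105 and 232, the fewest of the members, and the interval of its count share ratio, from -1.72 to -1.04, was the widest. The partners of SPC25 in the complex were closer to equal: NDC80 had 28.9 and 29.9 FPKM (-0.05) and NUF2 had 21.7 and 26.5 FPKM (-0.27). NDC80 was at 0.15 with the trend removed. SPC25 (ENSG00000152253) shares its locus in the table, hg19 chr2:169643048-169769881, with NOSTRIN and G6PC2, and no exonic bases of SPC25 overlap another gene in GENCODE release 44.

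CENPE, the kinesin that moves chromosomes to the spindle equator, had 10.7 FPKM (KD) and 18.4 FPKM (CTRL), a log2 ratio of -0.73. Its counts of 841 and 1723 gave a count share ratio of -1.26, with an interval from -1.39 to -1.14. CENPE had the lowest GC content of the members, 35.4%, and was at -0.39 with the trend removed. The number of estimated counts per unit of FPKM also differed between the columns for CENPE, with a log2 ratio of -0.25. CENPF, a large kinetochore protein also made in G2, went the other way with 98.8 and 78.3 FPKM, a log2 ratio of 0.33. At 6912 and 5681 counts it was among the best measured members, its count share ratio was 0.05 (interval 0.0021 to 0.10), and with the trend removed its ratio of 0.63 was the highest of the members. CENPA, the histone H3 variant that marks centromeres, had 26.1 and 24.4 FPKM, a log2 ratio of 0.10 that was -0.27 in count shares.

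The 3 spindle motors were lower in the KD column on every scale. KIF11, or Eg5, pushes the spindle poles apart, and its values of 18.5 FPKM (KD) and 28.2 FPKM (CTRL) gave a log2 ratio of -0.58. KIF2C, the microtubule depolymerase MCAK, had 37.6 and 47.6 FPKM, a ratio of -0.33. The chromokinesin KIF4A had 11.1 and 14.6 FPKM, a ratio of -0.37. The spread among the 3 was small, and the lowest of them, KIF11, also had the lowest GC content of the 3, 39.7%.

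Of the 6 spindle assembly genes, 5 had lower FPKM in the KD column, of which CKAP2 was above 0 with the trend removed. TPX2, the activator of AURKA that starts microtubule growth around chromosomes, had 90.4 FPKM (KD) and 128 FPKM (CTRL), a log2 ratio of -0.50. NUSAP1, which bundles microtubules near chromosomes, had 115 and 153 FPKM, a ratio of -0.41. ASPM focuses microtubules at spindle poles, and it had 14.5 and 23.7 FPKM, a ratio of -0.67. TPX2, NUSAP1 and ASPM were lower on all 3 scales, with ratios of -0.42, -0.38 and -0.32 when the trend was removed. DLGAP5, which stabilises kinetochore fibres, had 13.9 and 18.9 FPKM, a ratio of -0.42. CKAP2 had 22.5 and 26.8 FPKM, a ratio of -0.24 that became 0.02 with the trend removed and -0.77 in count shares. Its counts per unit of FPKM differed most among the members, with a log2 ratio of -0.29 between the columns, and once the median of all genes was subtracted such a ratio exceeded 0.1 in size for 12 of the 37 members and for 36.2% of all genes. HMMR, a microtubule-binding hyaluronan receptor, was nearly equal at 37.1 and 35.01 FPKM (0.08), and it was below 0 in count shares and above 0 with the trend removed. In GENCODE release 44, 86.8% of the exonic bases of NUSAP1 are shared with other annotated genes, mostly a protein-coding gene on the same strand. Such shares were 12.8% for PLK1, 10.2% for BUB1B and 7.08% for CENPA, and their part in the values was not tested.

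Among the 5 cytokinesis genes, KIF20A stood lowest of all the members. KIF20A, or MKLP2, is the kinesin that carries the chromosomal passenger complex to the central spindle. It had 33.6 FPKM in the KD column and 70.4 FPKM in the CTRL column, which was 2.09 times as high. The log2 ratio of -1.04 placed it at the 2.86 percentile of the 13741 genes. Its counts were 1137 and 2376, the interval of the count share ratio ran from -1.40 to -1.19, and the ratio with the trend removed was -1.02. Removal of the trend moved KIF20A less than it moved SPC25 or CENPE, and its GC content of 48.2% is close to the median of all genes, 47.9%. KIF20A (ENSG00000112984) shares a locus in the table, hg19 chr5:137475454-137549032, with BRD8 and CDC23, and in GENCODE release 44 its exonic bases overlap those 2 genes on the opposite strand over 5.35% of their length. The library kit did not mark strand, so reads in that overlap cannot be assigned, and the part of the overlap in the value was not tested.

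The other cytokinesis genes differed less. ECT2, which activates RhoA at the cleavage site, had 24.4 FPKM (KD) and 36.4 FPKM (CTRL), a log2 ratio of -0.56. KIF23, the motor of the centralspindlin complex that recruits ECT2, had 71.9 and 85.6 FPKM, a ratio of -0.25. PRC1, which crosslinks the microtubules of the central spindle, had 295 and 328 FPKM, a ratio of -0.15. These genes were lower on each of the scales, whereas the contractile ring scaffold ANLN had 103 and 92.2 FPKM, a ratio of 0.15 that was -0.14 in count shares and 0.39 with the trend removed. Of the exonic bases of PRC1, 61.9% are shared with other genes in GENCODE release 44.

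Both genes of mitotic chromosome structure were lower in the KD column on all 3 scales. TOP2A, the topoisomerase that untangles sister chromatids, had 187 FPKM (KD) and 253 FPKM (CTRL), a log2 ratio of -0.43. With 6060 and 8206 counts it was among the best measured members. MKI67, the proliferation antigen Ki-67 that coats mitotic chromosomes, had 22.4 and 29.2 FPKM, a ratio of -0.37. Removal of the trend brought TOP2A to -0.17 and MKI67 to -0.21.

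GC content ordered the members' ratios much as it ordered those of all genes. GC content was taken from the longest transcript of each gene in GENCODE release 44. Spearman's rho of log2 ratio and GC content was 0.497 over the 37 members and 0.445 over 13298 genes, which share the same libraries and are not independent replicates. The members were poorer in GC than the genes at large, with medians of 43.1% and 47.9%. Of the 13 members below 40% GC, 11 were lower in the KD column, as were 73.5% of all genes in that range. Their median of -0.43 compared with -0.27 for all genes there. Between 40% and 45% GC, 5 of 7 members were lower, beside 64.9% of all genes, with medians of -0.30 and -0.17. Between 45% and 50% GC, 7 of 9 members were lower, beside 53.8% of all genes, with medians of -0.37 and -0.04. Between 50% and 55% GC the members were close to all genes, with 1 of 4 lower beside 42.4% and medians of 0.11 and 0.10. The 4 members at 55% or more, CDC20, PLK1, AURKB and INCENP, had a median of 0.14 against 0.45, and none of them was lower in FPKM, beside 21.6% of all genes. With the trend removed, rho of ratio and GC content was 0.087 in the members. The ratio also went with level in the members (rho 0.458), so that the abundant ones tended to have higher ratios. The part of base composition in the values was not tested beyond the removal of this trend.

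**Figure D4:**
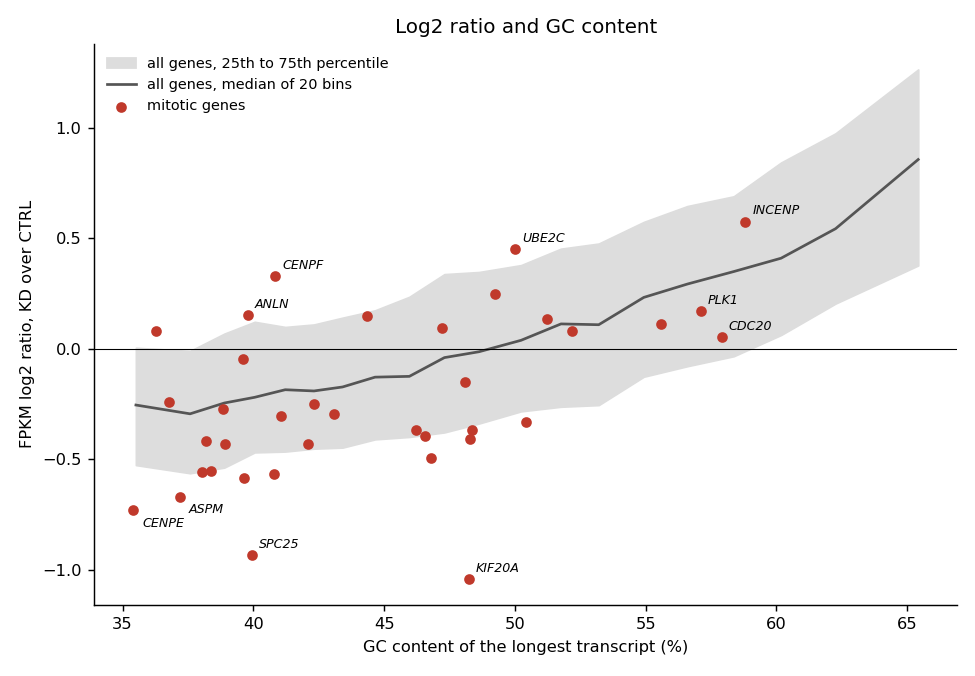
FPKM log2 ratio, KD over CTRL, against the GC content of the longest transcript, for the 37 members (red points) and as the median (line) and the 25th to 75th percentile (band) of all genes whose mean FPKM reached 1. The line rises with GC content, most members lie near or below it, and KIF20A and SPC25 lie farthest below it.

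Members with and without the CHR letters had close median ratios. The 25 members with the letters in their window had a median log2 ratio of -0.27, ran from -0.93 to 0.58 and had 16 genes below 0. The 6 without the letters had a median of -0.29, ran from -1.04 to 0.25 and had 4 below 0. Of all genes 48.9% lay below 0. With only 6 genes in 1 group, KIF20A among them, the 2 medians are a description and were not compared by a test. INCENP and SPC25, whose windows are both printed above, lie at opposite ends of the ratios.

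Another 108 genes of mitosis were taken as the wider pathway, and all of them passed the filter on low values. In FPKM 75 were lower in the KD column, beside 48.9% of all genes, and 33 were higher. Their median was -0.15 beside -0.30 for the members. Lower in count shares were 87, beside 61.9% of all genes, and with the trend removed 63, beside 48.6%. At the 2-fold limit in FPKM, 7 were at -1 or less and 3 at 1 or more, beside 3.27% and 8.51% of all genes. In count shares 14 were at -1 or less and 1, MAD1L1, at 1 or more, beside 9.83% and 6.92% of all genes. The lowest were a pair of condensin subunits and a kinetochore adaptor. NCAPH had 14.1 FPKM (KD) and 38.2 FPKM (CTRL), a log2 ratio of -1.38, and NCAPG had 7.51 and 19.4 FPKM, a ratio of -1.26. SPDL1, which brings dynein to kinetochores, had 33.8 and 79.4 FPKM, a ratio of -1.21. The highest included MAD1L1, which encodes MAD1, the kinetochore template for MAD2. It had 39.6 and 11.4 FPKM, a log2 ratio of 1.71, in contrast to the 5 checkpoint members. SKA2, of the kinetochore SKA complex, had 103 and 42.98 FPKM (1.24), and TACC3, which binds spindle microtubules, had 55.6 and 25.8 FPKM (1.08). All 6 kept their direction in count shares and with the trend removed. In the subgroup of motors 8 of 9 genes were lower in FPKM, as were all 3 motors among the members. In the anaphase-promoting complex 7 of 15 were, and of all genes 48.9%. Of the 7 other spindle checkpoint genes, 4 were lower in FPKM and 2 with the trend removed, beside 48.9% and 48.6% of all genes. This was unlike the 5 checkpoint members, and the median of the 7 was -0.04 in FPKM and 0.23 with the trend removed. The plot of cumulative shares sets these lists beside all genes.

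**Figure D5:**
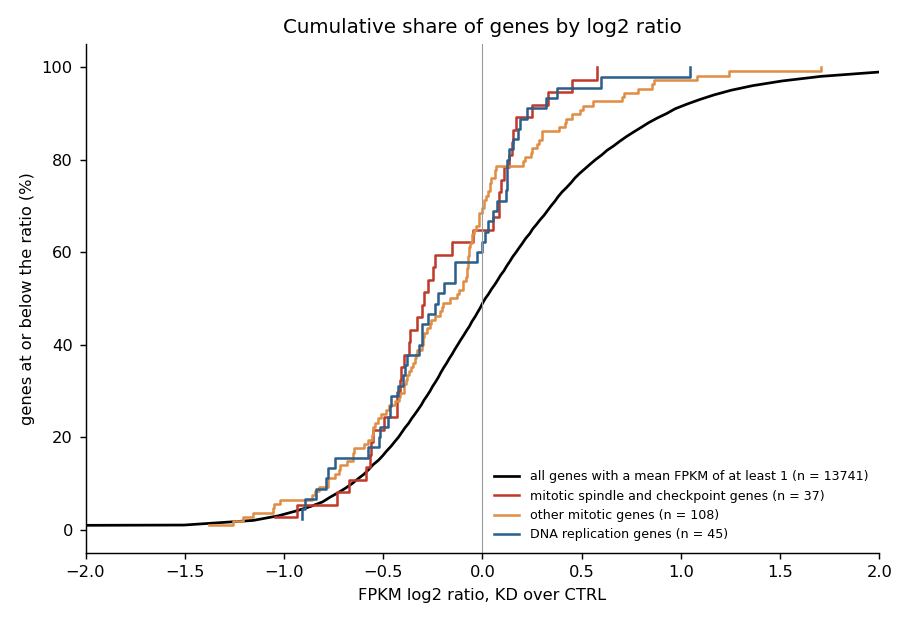
Cumulative share of genes (percent) by FPKM log2 ratio, KD over CTRL, for all 13741 genes (black), the 37 members (red), 108 other mitotic genes (orange) and 45 DNA replication genes (blue). Just below a ratio of 0 the 3 lists lie to the left of all genes, with medians of -0.30, -0.15 and -0.23 against 0.01.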

How the data were processed

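Paired-end reads were aligned by the authors to hg19 with TopHat 1.4.1, guided by Ensembl transcripts, and Cuffdiff 2.2.0 gave the FPKM. Of the deposited columns, the FPKM and the estimated count of each group were used, both as the authors made them. Further deposited columns hold the authors' fold change, p-value and FDR and the average, highest and lowest FPKM, and these were not used. The estimated counts need not be whole: 78.4% (KD) and 79.4% (CTRL) of the positive values were whole within 0.0001. The estimated counts summed to 13699340 (KD) and 11680567 (CTRL). Each sum is smaller than the number of mapped read pairs that the paper lists for any library, so the sums are not the sequencing depth. Symbols were matched exactly. Log2 ratios of FPKM used a pseudocount of 1, and genes whose mean FPKM reached 1 formed the background. Ratios of count shares of single genes had no added count, whereas their medians and the counts of genes past a limit used an added 0.5 counts. The interval of each ratio was an exact binomial 95% interval. Counting intervals do not cover differences between libraries. The designed test across libraries (limma) needs values per library and was not run. GC content, length and exon overlaps came from GENCODE release 44 on GRCh37, and promoter windows from RefSeq on GRCh38.p14, with the start farthest 5′ kept for each gene. The text names all 37 members and, of each other list, the 3 highest and 3 lowest genes with at least 50 counts. The members and all lists were chosen with earlier results of these data known. Alternatives were a pseudocount of 0.1, no filter, an FPKM over 5 in at least 1 column, centring on the median, count shares, removal of the GC and length trend, and summing rows of a symbol. The functions were tested on simulated data. Computations used scipy 1.17.1, pandas 2.3.3 and numpy 2.4.6 in Python 3.11.15, with matplotlib 3.10.9 for plots.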

Additional observations from a re-analysis of the deposited data

How the results depend on the processing

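No paired analysis was possible because each group has 1 value per gene. Leaving out a library was not possible for that reason either. The signs of the members held under a pseudocount of 0.1, no filter, an FPKM over 5 in at least 1 column, centring and summed rows, with 24 of 37 below 0 in each. With estimated counts divided by the column total, the members' median was -0.48, that of the other mitotic genes was -0.45 and that of all genes was -0.21. On that scale 3 members (KIF20A, SPC25 and CENPE) and 1351 genes were at -1 or less. Another 8 members with FPKM ratios above 0 fell below 0: CDC20, CCNB2, AURKB, BIRC5, CDCA8, CENPA, HMMR and ANLN. Of these 8, only CENPA, at -0.27, lay below the median of all genes. Once the GC and length trend was taken out, the members' median was -0.15, 725 genes were at 1 or more instead of 1169, and CDC20, PLK1, AURKB, BIRC5, NDC80 and CKAP2 changed sign. The number of genes at -1 or less, 450, was 791 with a pseudocount of 0.1 and 292 among genes over 5 FPKM, a smaller set. CHR letters were found in 61.29% of member promoters when the bases after the start were left out. The cause of these shifts was not tested. The size of the estimated counts set the counting interval, whose half-width ran from 0.048 to 0.343 over the members and was widest for SPC25.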

Other observations

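The 45 DNA replication genes act earlier in the cell cycle than the mitotic genes. By FPKM 28 of them were lower in the KD column, beside 48.9% of all genes, and 17 were higher. Their median log2 ratio was -0.23 in FPKM, beside 0.01 for all genes. It was -0.46 in count shares, beside -0.21, and -0.15 with the GC and length trend removed, beside 0.01. In FPKM none was at -1 or less, beside 3.27% of all genes, whereas in count shares 6 were, beside 9.83% of all genes. PCNA, the sliding clamp of DNA polymerases, had 118 FPKM (KD) and 223 FPKM (CTRL), a log2 ratio of -0.91. MCM6, a subunit of the replicative helicase, was also at -0.91, and ORC4, of the origin recognition complex, was at -0.90. CDT1, which loads the helicase, had 44.8 and 21.2 FPKM, a ratio of 1.05 that was 0.37 with the trend removed. ORC6 was at 0.60 and RPA3 at 0.38.

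The tubulins, from which spindle microtubules are made, were mostly higher in FPKM in the KD column. Of 14 tubulin genes 13 passed the filter, 9 of them with a ratio above 0 and 4 below 0, beside 48.9% of all genes below 0. At 1 or more were 3, beside 8.51% of all genes. The tubulin median was 0.14 in FPKM and -0.08 in count shares, beside 0.01 and -0.21 for all genes. By count shares 8 of the 13 were lower, beside 61.9% of all genes. TUBB3 had 137 FPKM (KD) and 52.0 FPKM (CTRL), a log2 ratio of 1.38. TUBA1A was at 1.16 and TUBA1C at 1.008, and these close paralogs may share reads. In count shares TUBB3 alone stayed at 1 or more, at 1.17, beside 6.92% of all genes, with TUBA1A at 0.92 and TUBA1C at 0.74. The lowest were TUBG2 at -0.27, TUBD1 at -0.17 and TUBB2A at -0.13, of which TUBD1 was at 0.02 with the trend removed. Of the 23 genes that every cell uses, 13 were higher in FPKM and 10 lower, beside 48.9% of all genes lower. Their median was 0.14 in FPKM and -0.07 in count shares, beside 0.01 and -0.21 for all genes.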
